A study of Mus musculus with 2 samples.

Results

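The genes described are 43 genes for enzymes that cut the extracellular matrix and for their inhibitors, listed by family name. No rule on their values was used, but the list was chosen with earlier results of these data known. The list leaves out some genes of these families, which are given with the cluster and with the other genes of proteolysis below. They are 16 matrix metalloproteinases (MMP), 14 ADAMTS proteases, 5 ADAMTS-like proteins, the inhibitors Timp1 to Timp4 and Reck, the serine proteases Htra1 and Htra3, and cathepsin K (Ctsk). Of the 43, 40 had at least 1 probe set that names them alone, out of 18193 genes measured this way. Mmp15, Mmp28 and Adamts17 were not analysed here. The RNA came from rib cartilage cells of mice at 5 days of age, freed with collagenase, and was measured on Affymetrix Mouse Genome 430 2 arrays. One group was wild type and the other carried the V156D change in Matn1, the gene of the cartilage matrix protein matrilin-1, as a knock-in. Each group was 1 array of pooled RNA, and the design text speaks of 5 littermates of known genotype. Zygosity, strain and sex were not given in the sources used here. Since there was 1 array per genotype, no value has a replicate error, no test is possible, and "higher" and "lower" below compare the mutant array with the wild-type array only. The precision is limited by the number of arrays. Cell number and RNA per cell cannot be told apart in such bulk samples.

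Cartilage is rebuilt as it grows, and its collagen and aggrecan are cut by enzymes that are tightly controlled. MMPs and ADAMTS proteases are zinc enzymes made as inactive precursors, and TIMP proteins block their active site. MMP13 cuts collagen II where cartilage gives way to bone, ADAMTS4 and ADAMTS5 are the main aggrecanases, and cathepsin K is the collagenase by which osteoclasts resorb bone. ADAMTS-like proteins share the ancillary domains of ADAMTS proteases but have no catalytic domain, and several of them bind to microfibrils.

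Both arrays were alike as a whole and carried a strong cartilage signal. The median intensity over 45037 probe sets was 54.3 on the wild-type array and 55.1 on the mutant array. All 10 chondrocyte markers were above the signal floor, set at the median over probe sets of the mean log2 signal, which equals an intensity of 54.6. Col2a1, the main cartilage collagen and an MMP13 substrate, had 27997 on the wild-type array and 29057 on the mutant array. Acan, the aggrecan gene, had 8223 and 8564. Matn1 itself had 4373 and 4340, and the array was not made to tell its alleles apart. The arrays also differed in Xist, at 7755 on the wild-type array and 5006 on the mutant array, and in the Y-linked Eif2s3y, at 230 and 490, transcripts that differ by sex; the part of sex in the results below was not tested.

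Mmp13, Mmp12, Mmp3, Mmp10 and Mmp8 lie in this order in one cluster on chromosome 9, with Mmp1b and Mmp1a in between. The stretch just before the start of each of the genes named first is shown because they differed in the same direction where they were detected. The sequences are RefSeq, GRCm38.p6, 120 bases ending at the base before the annotated start, all on the + strand. Capitals mark the motif TGANTCA, the recognition sequence of AP-1, the dimer of FOS and JUN proteins through which many MMP genes are known to be induced. The promoters of Ctsk and Adamts12, which were higher in the mutant array and were picked once their values were known, stand below them.
Mmp13 (collagenase 3), chr9:7272394-7272513: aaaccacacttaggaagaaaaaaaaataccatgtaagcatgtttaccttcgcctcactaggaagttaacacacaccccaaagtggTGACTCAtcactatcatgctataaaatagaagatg
Mmp12 (macrophage elastase), chr9:7347254-7347373: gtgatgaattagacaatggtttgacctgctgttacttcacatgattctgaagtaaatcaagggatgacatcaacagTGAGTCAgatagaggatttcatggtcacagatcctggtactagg
Mmp3 (stromelysin 1), chr9:7445702-7445821: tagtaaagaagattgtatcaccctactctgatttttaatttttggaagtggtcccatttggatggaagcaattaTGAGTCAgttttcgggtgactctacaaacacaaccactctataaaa
Mmp10 (stromelysin 2), chr9:7502222-7502341: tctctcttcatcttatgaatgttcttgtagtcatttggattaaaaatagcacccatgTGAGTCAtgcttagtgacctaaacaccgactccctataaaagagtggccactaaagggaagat
Mmp8 (neutrophil collagenase), chr9:7558309-7558428: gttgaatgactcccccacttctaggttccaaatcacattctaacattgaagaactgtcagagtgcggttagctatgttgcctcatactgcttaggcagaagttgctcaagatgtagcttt
Ctsk (cathepsin K), chr3:95499090-95499209: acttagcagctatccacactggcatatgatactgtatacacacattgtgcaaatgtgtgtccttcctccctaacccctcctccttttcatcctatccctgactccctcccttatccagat
Adamts12 (a metalloprotease that cuts COMP), chr15:11064653-11064772: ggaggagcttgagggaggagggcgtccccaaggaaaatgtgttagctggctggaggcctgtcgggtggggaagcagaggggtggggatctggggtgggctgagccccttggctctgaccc

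The motif began 35 bases before the start in Mmp13, 44 in Mmp12, 46 in Mmp3 and 63 in Mmp10. Mmp12 has another annotated start, whose promoter holds no match. The start shown was picked because its promoter holds the motif. Promoters were at hand for 29 of the 43 genes, and Mmp13, Mmp12, Mmp3 and Mmp10 were the 4 of these with a match, on either strand, within 250 bases before a start. Over all genes of the table, 7.82% had one. Mmp8, Ctsk and Adamts12 had none in that window. Genes without a match went both ways: Adamts1, Adamts20, Timp3 and Timp4 had ratios below 0 and the other measured ones above 0. A match is a description of the letters and shows no binding.

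As a whole, few of the 40 genes differed strongly, and those that did went both ways by family. The mutant array was at least 2-fold higher for 3 of the 40, Adamts12, Adamtsl1 and Ctsk, where 0.484% of all genes were called, and at least 2-fold lower for 0, against 0.198%. At 1.5-fold, 4 were higher, with Adamtsl3 added, against 1.53% of all genes, and 2 were lower, Mmp12 and Mmp13, against 1.61%. The log2 ratio of the mutant array over the wild-type array was above 0 for 30 of the 40, against 47.3% of all genes. Its median was 0.11, against -0.01 for all genes. At or above the floor it was above 0 for 21 of 30, and for 5074 of all 11329 genes there. Many of these ratios, such as 0.0012 for Timp1, were smaller than the probe disagreement given below. By family the median was 0.08 for the MMPs, 0.23 for the ADAMTS proteases, 0.46 for the ADAMTS-like proteins and 0.0012 for the inhibitors. The MMP median was -0.02 over the 7 with a second brightest probe set, and the ADAMTS median was 0.09 with an offset of 32 added before log2 and 0.15 with the mean over probe sets.

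**Figure D1:**
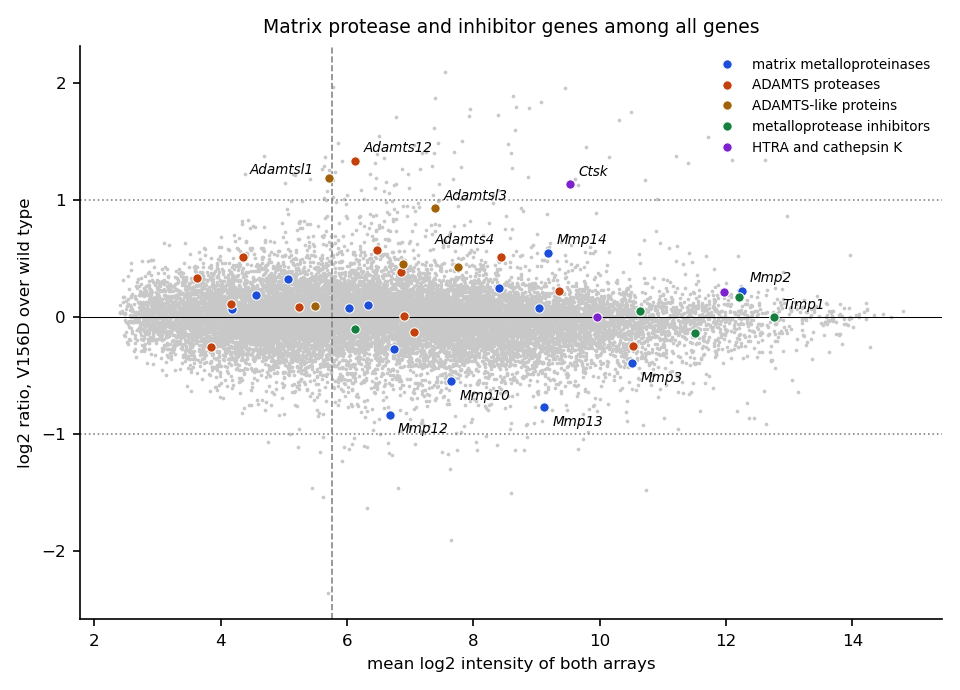
Log2 ratio of the V156D array over the wild-type array (vertical) against the mean log2 intensity of both arrays (horizontal) for 18193 genes (grey) and the 40 protease and inhibitor genes (coloured by family). Dotted lines mark 2-fold and the dashed line the signal floor; Adamts12, Adamtsl1 and Ctsk lie above the upper dotted line and no coloured point lies below the lower one.

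Not all of the 40 were detected well. At or above the floor were 30, of which 29 were so on both arrays. Adamts12 reached it only through the mutant array, so it had to differ to be included. The other 10 were Mmp8, Mmp11, Mmp19, Adamts7, Adamts15, Adamts18, Adamts19, Adamts20, Adamtsl1 and Adamtsl5, with intensities from 11.0 to 79.6. At such low signals the size of a ratio is uncertain. With an offset of 32 added before log2, the log2 ratio of Adamtsl1 fell from 1.19 to 0.74. That of Adamts12, also low on the wild-type array, fell from 1.34 to 0.91. Probe sets of 1 gene serve as the only internal check: of 22 genes with several, 15 had all of them on one side of 0 and 7 did not. Over all genes with 2 probe sets above the floor, the brightest 2 differed with an SD of 0.26 on the log2 scale, so ratios smaller than this lie within probe disagreement.

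**Figure D2:**
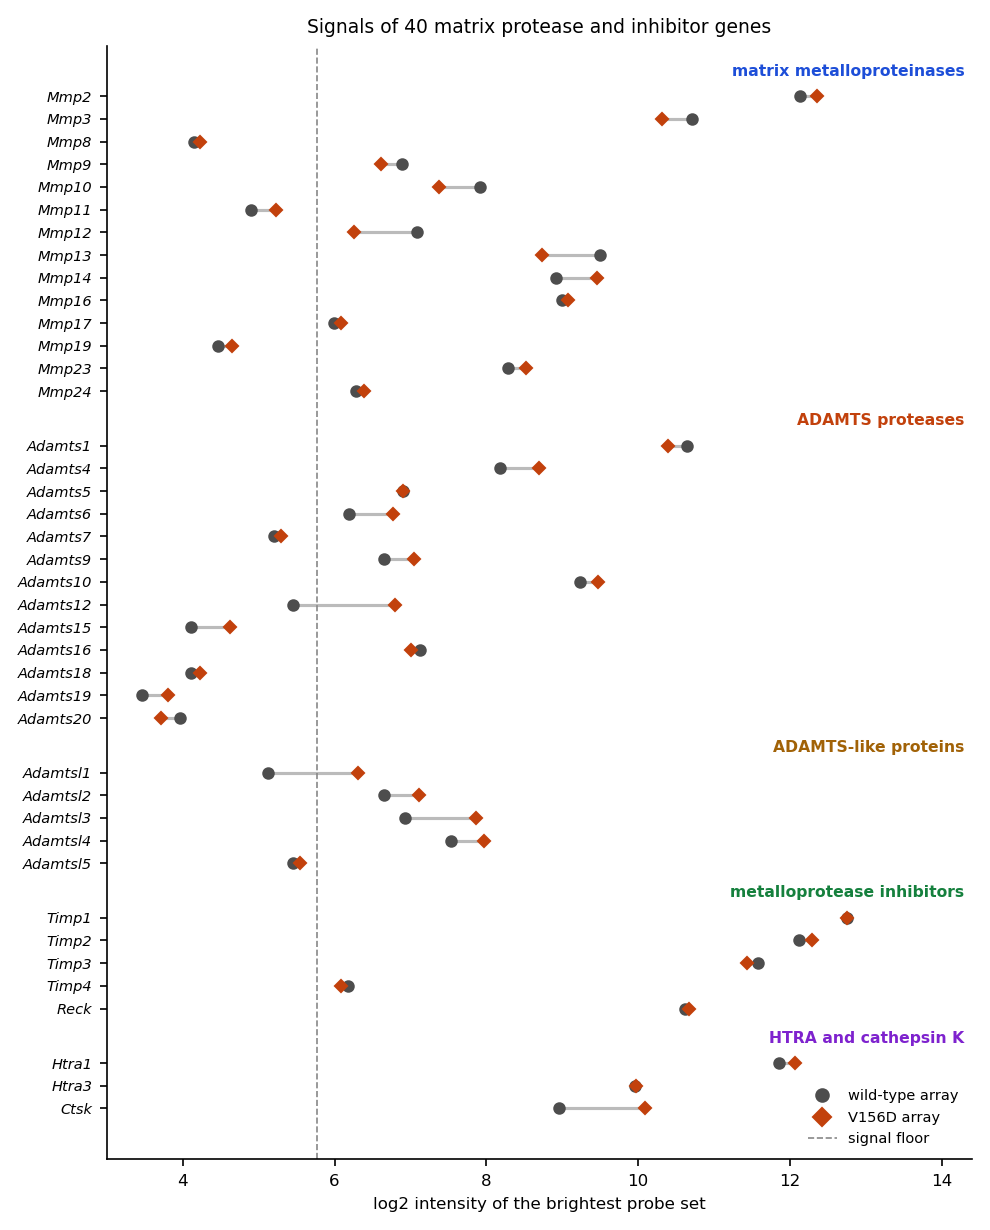
Log2 intensity of the brightest probe set of each of the 40 genes in the wild-type array (grey circles) and the V156D array (orange diamonds), 1 array each, by family. The dashed line is the signal floor at 5.77; the 2 marks nearly coincide for Timp1, Htra3 and Adamts5 and stand farthest apart for Adamts12, Adamtsl1 and Ctsk.

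Among the collagenases, stromelysins and the elastase Mmp12, secreted MMPs that cut collagen, proteoglycans and elastin, all that were detected had lower signals in the mutant array. Mmp13 had a signal of 726 on the wild-type array and 426 on the mutant array, 1.70-fold lower. Mmp12, known from macrophages, had 137 and 76.7, 1.78-fold lower. Mmp10, an activator of other proMMPs, had 242 and 166, a log2 ratio of -0.54. Mmp3, which cuts aggrecan and activates procollagenases, had 1674 and 1276, a log2 ratio of -0.39. Each of these 4 was measured by a single probe set, so no second probe set bears on them. Mmp8 lay below the floor at 17.7 and 18.7.

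These 4 are the cluster members with the AP-1 motif shown above. Most of the other measured genes of the cluster had the same sign, but of them only Mmp7 reached the floor. RefSeq lists 10 Mmp genes in the cluster, of which 9 were measured and 8 had ratios below 0, as had 9487 of all 18193 genes. Of the 5 at or above the floor, all 5 were below 0, as were 6231 of all 11329 genes at or above the floor. But 4 of the 5 are the genes whose shared direction led to the cluster being shown. The fifth is Mmp7, matrilysin, with 78.2 on the wild-type array and 64.4 on the mutant array, and the promoter of 1 of its 2 annotated starts holds the motif. Mmp1a, Mmp1b and Mmp20 hold it too, but they lay below the floor, at 7.66 to 21.0. Of the 4 nearest protein-coding genes on either side, 8 in all, 4 were above and 4 below 0; of the 6 at or above the floor, 4 were below 0. On the Mmp13 side, Dcun1d5 had a log2 ratio of -0.19 and Dync2h1 0.22. On the far side, Tmem123 had -0.31, Birc2 -0.13, Birc3, an inhibitor of apoptosis induced by NF-kB, -0.39, and Yap1 0.22.

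**Figure D3:**
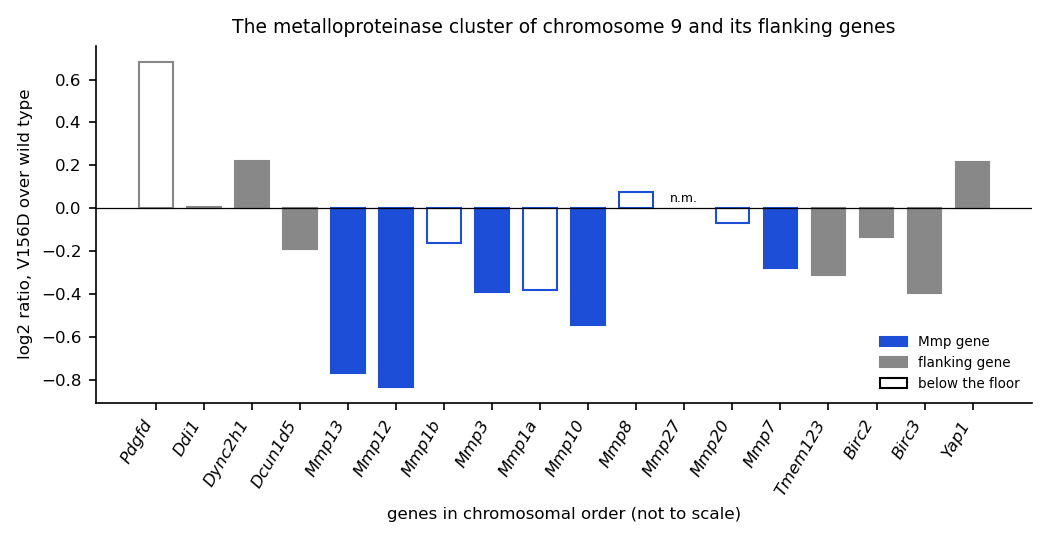
Log2 ratio of the V156D array over the wild-type array for the 10 Mmp genes of the chromosome 9 cluster (blue) and the 4 nearest protein-coding genes on each side (grey), in chromosomal order and not to scale. Open bars lie below the signal floor and n.m. marks Mmp27, which was not analysed here; Mmp13 and Mmp12 have the longest bars below 0.

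Genes that respond to stress and to cell release had lower signals on the mutant array, most of them by less than the probe disagreement of 0.26 given above. All 12 listed heat shock and immediate early genes, chosen with earlier results of these data known, had ratios below 0. So had 6231 of all 11329 genes at or above the floor. The median of the 12 was -0.24, or -0.19 after quantile normalization or a loess correction for signal. Their summed intensity was 135002 on the wild-type array and 113323 on the mutant array. The chaperone gene Hsph1 was lowest at -0.86 and Egr1 highest at -0.06. The AP-1 genes on that list, picked once their values were known, had strong signals on both arrays. Fos had 15943 on the wild-type array and 15238 on the mutant array, Jun 9758 and 8030, Fosb 3594 and 3020, and Junb 2303 and 2190. In that order the log2 ratios were -0.07, -0.28, -0.25 and -0.07, and only that of Jun exceeded the probe disagreement. The part of these AP-1 genes in the MMP signals was not tested. Of 9 markers of macrophages, a source of Mmp12, 4 were above the floor, and Adgre1, Mrc1, C1qa, C1qb and Ptprc lay below it. The list median was 0.0071, and the summed intensity was 1886 on the wild-type array and 1581 on the mutant array. Over the 4 above the floor the median was -0.08. Cd14 was lowest of these at 1500 and 1187, a log2 ratio of -0.34, and made up most of both sums. Csf1r was highest at 94.4 and 106. Over all 9 markers, 5 had ratios above 0 and 4 below. Of the 6 measured hypertrophic markers, Panx3 had -0.37 and Alpl 0.24, and Col10a1, the collagen of the zone that makes MMP13, had 4723 and 4407.

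The gelatinases, which cut denatured collagen and basement membrane, did not share a direction. Mmp2 had 4493 on the wild-type array and 5255 on the mutant array, a log2 ratio of 0.23, and its second probe set gave 0.25. Mmp9, known from osteoclasts and neutrophils, had 118 and 98.2, a log2 ratio of -0.27, with -0.02 from its second probe set. Of 9 neutrophil markers 1 was above the floor, Camp at -0.13, with a summed intensity of 330.4 and 306, and of 8 osteoclast markers likewise 1.

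The membrane-type MMPs were level or higher. Mmp14, which activates proMMP2 at the cell surface, had 482 on the wild-type array and 706 on the mutant array, a log2 ratio of 0.55 or 1.46-fold. The mean of its 3 probe sets was 0.56 ± 0.22 (SD between probe sets, not samples). Mmp23, a membrane protease without the usual cysteine switch, had 311 and 369, with ratios of 0.25 and 0.08 from its probe sets. Mmp16 had 513 and 541, and its 4 probe sets ran from -0.17 to 0.28, so its direction was unsettled, as was that of Mmp24 at 77.8 and 83.8 with probe sets from -0.13 to 0.11. Mmp17 had 64.0 and 67.7. Mmp11 and Mmp19, secreted MMPs below the floor, had 29.9 and 37.5, and 22.1 and 25.2. Thus the MMPs above the floor divided into 6 above and 5 below 0, the 5 being Mmp9 and the 4 of the cluster.

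Among the aggrecanases, Adamts4 was higher and Adamts5 level. Adamts4 had 291 on the wild-type array and 416 on the mutant array by its brightest probe set, 1.43-fold. Its second probe set gave 47.3 and 147, or 3.11-fold, from a wild-type value below the floor, so the size of the difference was not settled. Adamts5 had 119 and 120, and its 4 probe sets ran from -0.16 to 0.07. Adamts1, an early response gene that also cuts aggrecan and versican, had 1601 and 1349, a log2 ratio of -0.25, from 1 probe set. Adamts9, a versicanase, had 101 and 132; its 3 probe sets gave 0.39, 0.52 and 1.05. Adamts15, another versicanase, lay below the floor at 17.2 and 24.6.

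Other ADAMTS genes were mostly higher, with Adamts12 the most different. Adamts12, which cuts the cartilage protein COMP, had 44.0 on the wild-type array and 111 on the mutant array, 2.53-fold higher, while a second probe set near 7 on both arrays gave 0.16. Adamts6 had 73.3 and 109, a log2 ratio of 0.58 that falls just short of 1.5-fold, and its other probe set gave 0.41. Adamts10, a partner of fibrillin microfibrils, had 605 and 708, a log2 ratio of 0.23. Adamts16 had 140 and 128, but its 2 probe sets had opposite signs. Adamts7, which also cuts COMP, had 36.8 and 39.2, below the floor, and Adamts18, Adamts19 and Adamts20 did not exceed 18.8. Of the 8 ADAMTS proteases above the floor, 6 had ratios above 0. Adamts12 is 1 of these 6, and its sign was bound to be positive, since it passed the floor only through the mutant array. For comparison, 5074 of all 11329 genes that passed the floor were higher in the mutant array.

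All 5 ADAMTS-like genes had higher signals in the mutant array. Adamtsl1 had 34.9 on the wild-type array and 79.6 on the mutant array, 2.28-fold, and the mean of its 3 probe sets was 1.09 ± 0.21 (SD between probe sets), although its mean signal lay just below the floor. Adamtsl3 had 122 and 233, 1.91-fold. Adamtsl2, whose human mutations cause geleophysic dysplasia, had 101 and 139, a log2 ratio of 0.46. Adamtsl4, which binds fibrillin, had 186 and 250, a log2 ratio of 0.43. Adamtsl5 had 43.8 and 46.7, with probe sets on both sides of 0.

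**Figure D4:**
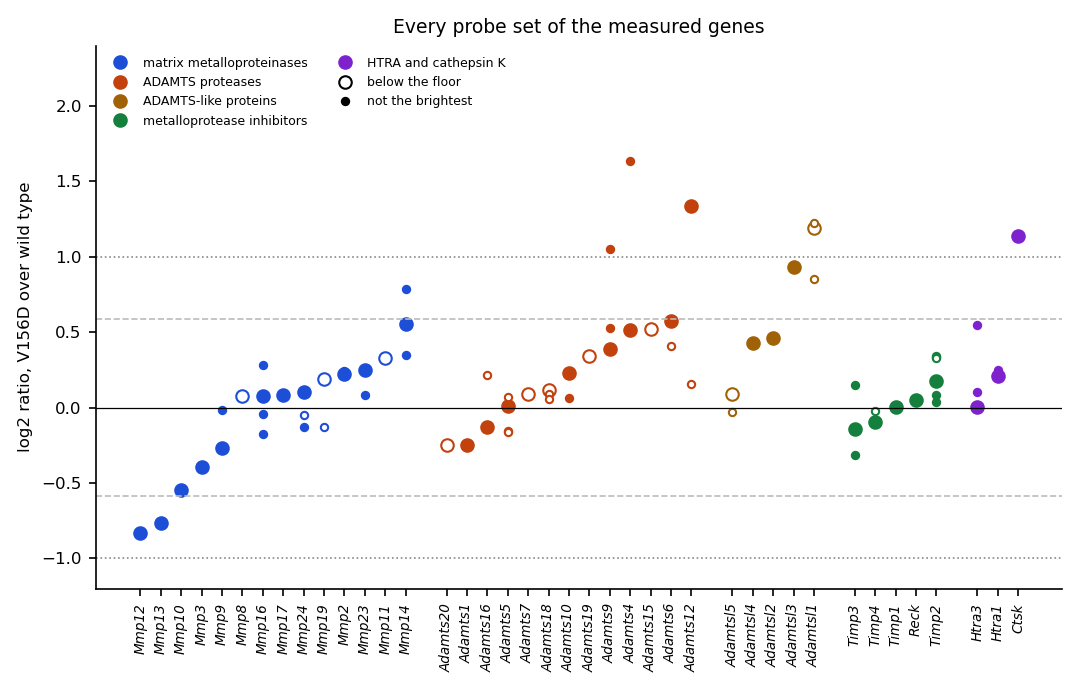
Log2 ratio of the V156D array over the wild-type array for all 78 probe sets of the 40 genes, ordered within each family by the brightest probe set (large points). Small points are the other probe sets and open points lie below the signal floor; lines mark 1.5-fold (dashed) and 2-fold (dotted). The 3 probe sets of Adamtsl1 lie together, whereas those of Adamts4 and Adamts12 are spread widely.

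The inhibitors were nearly equal between the arrays. Timp1, a soluble inhibitor of most MMPs, had 6925 on the wild-type array and 6931 on the mutant array. Timp2, which also takes part in proMMP2 activation with MMP14, had 4446 and 5015, and its 6 probe sets were all above 0, with a mean of 0.22 ± 0.14 (SD between probe sets). Timp3, the inhibitor that stays bound to matrix and blocks aggrecanases, had 3055 and 2774; its 4 probe sets ran from -0.31 to 0.15. Timp4 had 72.4 and 67.6. Reck, a membrane-anchored MMP inhibitor, had 1574 and 1629. The ratio farthest from 0 among these 5 brightest probe sets was 0.17, inside the probe disagreement given above.

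Ctsk, a cysteine protease, was at least 2-fold higher, and the serine proteases Htra1 and Htra3 were not. Ctsk had 498 on the wild-type array and 1095 on the mutant array, 2.20-fold higher, from a single probe set well above the floor on both arrays. Of 8 genes that define osteoclasts only Acp5, the acid phosphatase TRAP, was above the floor, at 218 and 149, a log2 ratio of -0.55, and the summed intensity of the list was 450 on the wild-type array and 376 on the mutant array. Htra1, a serine protease that cuts fibronectin and proteoglycans, had 3706 and 4291, a log2 ratio of 0.21, and 0.25 from its second probe set. Htra3 had 999 and 1001, but its other 2 probe sets gave 0.54 and 0.10.

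Fibrous tissue and vessel markers had higher signals on the mutant array, as had Ctsk, Adamts12, the ADAMTS-like genes and Mmp14. Of 13 fibroblast, tendon and perichondrial markers, 12 had ratios above 0 and 5 were at least 2-fold higher, with a median of 0.87. That median was 0.79 with an offset of 32, 0.97 with the mean over probe sets and 0.56 over the 8 with a second brightest probe set. The mean signal of all 13 was above the floor, and 12 were so on both arrays, Scx being below it on the wild-type array. Their summed intensity was 50038 on the wild-type array and 79780 on the mutant array. The tendon genes Thbs4 and Tnmd had log2 ratios of 1.76 and 1.54, the collagen genes Col14a1 and Col1a1 1.69 and 1.35, and the matricellular gene Postn 1.34, whereas Pdgfra had -0.10. Of 10 endothelial markers, 9 had ratios above 0, with a median of 0.97 and a summed intensity of 677 and 1081. That median was 0.61 with the offset, 0.87 with the mean over probe sets and 0.13 over the 2 with a second brightest probe set. Of these 10, 6 were above the floor, 5 of them on both arrays, and Emcn passed it only through the mutant array. Their vessel cadherin Cdh5, the sialomucin Emcn and the adhesion gene Esam had 1.39, 1.34 and 1.06, and Egfl7 -0.19. Of 6 measured osteoblast markers, 3 were above the floor and all 6 had ratios above 0, with a median of 0.40, from Sp7 at 0.09 to Col1a1 at 1.35 among those above the floor. Of 7 skeletal muscle markers, 3 were above the floor and all 3 had ratios below 0. Their median was -0.44, from Tnnt3 at -0.48 to Ckm at -0.02. Over all 7 the median was -0.0082. The summed intensity of the 7 was 2396 and 1779, most of it from Tnnt3 at 1930 and 1388. Among the 10 chondrocyte markers the ratios ran from -0.29 for Sox9 to 0.06 for Acan, with a median of 0.03. The part of cell composition in the protease ratios was not tested.

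**Figure D5:**
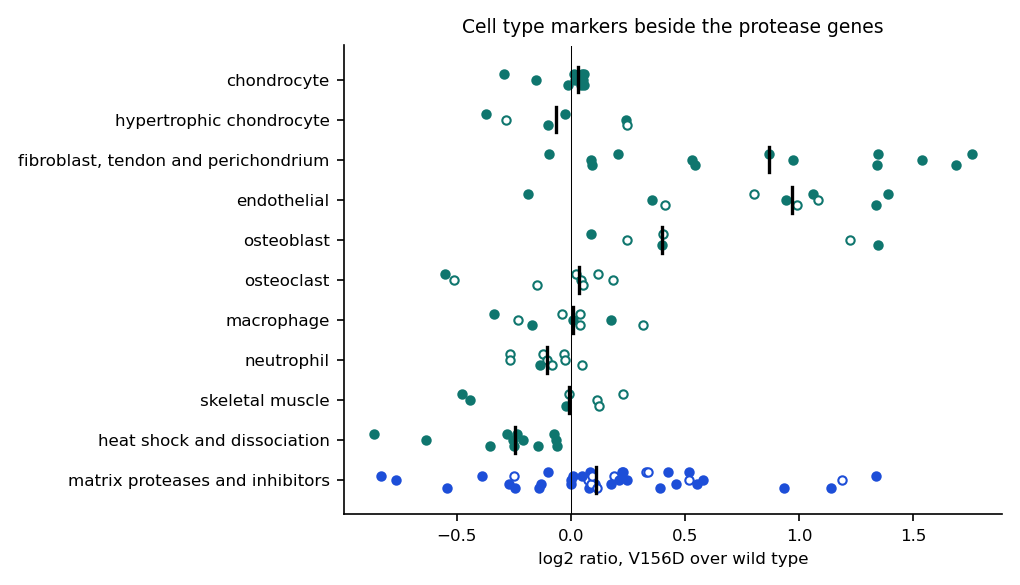
Log2 ratio of the V156D array over the wild-type array for each gene of 10 marker lists (green) and for the 40 protease and inhibitor genes (blue); black bars are medians and open points lie below the signal floor. The medians of the fibroblast and endothelial lists are 0.87 and 0.97, that of the proteases 0.11 and that of the heat shock and dissociation genes -0.24.

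Other genes of matrix proteolysis differed in both directions. Of 62 such genes, 54 were measured, 23 had ratios above 0 and 31 below, and the median was -0.04. Higher at 1.5-fold were 2 and lower 3, against the 1.53% and 1.61% of all genes given above. One was at least 2-fold higher, against 0.484%, namely Pcolce, which enhances the trimming of procollagen I, with 1351 on the wild-type array and 2723 on the mutant array, while its relative Pcolce2 had -0.10. The procollagen C-proteinase gene Bmp1 had 0.24, Adamts3, which trims the N-end of procollagen II, 0.15, and the related Tll1 -0.74. In the plasminogen system, which activates proMMPs, 6 of 8 genes were below 0, as were 9487 of all 18193 genes. Of its 5 genes at or above the floor, 3 were below 0, as were 6231 of all 11329 such genes. Its lowest above the floor was the urokinase receptor Plaur at 1087 and 704, 1.55-fold lower, the highest was Plgrkt at 0.10, and urokinase itself, Plau, had 247 and 179. Of the convertases that process MMP and ADAMTS precursors, Pcsk5 had 0.47 and Furin 480 and 479. Among 8 ADAM proteases, 4 were above and 4 below 0, with Adam10, a sheddase, at 0.63 and Adam19 at -0.67. The other cathepsins and cystatins differed little, from Ctsd at 0.12 to Cstb at -0.11 above the floor, in contrast to Ctsk at 1.14. Of 9 clearance and MMP-inducing genes, the collagen receptor Mrc2 had 0.17 and Cd44, a docking site for MMP9, -0.58. Of the other MMP and ADAMTS genes, 5 of 9 were measured, 1 had a ratio above 0 and the median was -0.16; 2 were above the floor, Mmp7 at -0.28 and Adamts8 at 0.02. Plau, Bmp1, Adamts3 and Pcolce2 were picked once their values were known.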

How the data were processed

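The deposited intensities are linear, 1 per probe set and array, and MAS5 is the tool named in the submitters' processing notes. Its settings, and whether the arrays were scaled to each other, were not given in the sources used here. Gene names came from the platform annotation held by GEO, and 34741 of the 34945 with 1 symbol were found in RefSeq (GRCm38.p6) by Entrez identifier. Another 932 with several symbols and 9160 unnamed ones were left out. Of several probe sets for a gene the brightest by mean log2 signal was used, and the log2 ratio of the mutant array over the wild-type array was taken without further normalization. The signal floor was the 50th percentile over all probe sets. With 1 array per group no test was run; thresholds were 2-fold and 1.5-fold. The members, lists and alternatives were chosen with earlier results of these data known. Named genes were members at or above the floor or at least 1.5-fold different, and in each other list the highest and lowest above the floor and those 2-fold different there. Promoter motifs and neighbouring genes were added afterwards. The scripts, tested on simulated data, used Python 3.11.15, numpy 2.4.6, pandas 2.3.3 and statsmodels 0.14.6.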

Additional observations from a re-analysis of the deposited data

How the results depend on the processing

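The 8 alternatives were centring on array medians, quantile normalization, a loess correction for signal (span 0.3), an offset of 32 before log2, only genes at or above the floor, the mean over all probe sets, leaving out probe sets ending in _s_at, _x_at or _a_at, and the second brightest probe set. Under the 3 scalings (centring, quantile and loess) the median of all genes shifted by -0.0213, 0.0096 and 0.0085. With the offset, 1 gene (Ctsk) was 2-fold higher. With the second brightest probe set, which 22 of the genes have, 2 were 1.5-fold higher (Adamts4 and Adamtsl1) and 0 lower, since Mmp12 and Mmp13 have 1 probe set each. The mean over probe sets put Adamts4 in place of Adamts12 among the 2-fold higher genes. Mmp12 and Mmp13 were 1.5-fold lower under every alternative that measures them. To the 1.5-fold higher genes, quantile normalization and loess added Mmp14, the offset Adamts9 (0.82, from another probe set), and the mean over probe sets Adamts4 and Adamts9. The median over the other proteolysis genes, -0.04, became 0.0034 after quantile normalization, 0.0039 after loess, -0.00052 above the floor and 0.0667 with the second probe set. Of 31 named genes, 24 kept their sign under all alternatives run on them, and Mmp16, Mmp24, Adamts5, Adamts16, Timp1, Timp3 and Htra3 did not. No paired analysis was possible because there is 1 array per genotype.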
